A study of Mus musculus with 8 samples.

Results

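The 10 chemokine ligand genes Cxcl2, Cxcl9, Cxcl10, Cxcl12, Cxcl16, Ccl3, Ccl4, Ccl5, Ccl6 and Ccl9 were followed in CD11b+Gr-1hi and CD11b+Gr-1lo myeloid cells of sanroque mice. They were taken by symbol from a table of 54188 genes, and all 10 had counts and passed the filter on low counts, as did 17650 genes in all. RNA-seq was run on sorted splenic (SP) and bone marrow (BM) cells, with 2 libraries in each of 4 groups. SP Gr-1hi are libraries 5 and 6, SP Gr-1lo 7 and 8, BM Gr-1hi 9 and 10, and BM Gr-1lo 11 and 12. All groups came from mice labelled female, 20 weeks old, of the sanroque strain on C57BL/6 and homozygous for the Roquin san allele, so wild-type cells were not part of the comparisons. The labels write the gate as CD11+ and call the Gr-1hi cells G-MDSCs. The study counts the 2 libraries of a group as independent biological replicates, but no label ties a library to a mouse or says whether mice were pooled, and the p values measure the spread between these libraries.

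Chemokines are small secreted proteins that guide leukocytes along gradients through G protein-coupled receptors. CXCL9 and CXCL10 are induced by IFN-γ and act on CXCR3, a receptor of Th1 and CD8+ T cells, while CXCL2 is an early NF-κB-dependent product that recruits neutrophils through CXCR2. CCL3, CCL4 and CCL5 attract T cells and monocytes, CCL6 and CCL9 are ligands of CCR1, CXCL16 is a membrane-bound ligand of CXCR6 that can be shed, and the CXCL12 of stromal cells keeps CXCR4-bearing myeloid cells in the marrow. Roquin, the RNA-binding protein altered in sanroque mice, lowers the stability of immune mRNAs.

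The sex genes set libraries apart from their labels. Library 5 held 12032 and library 7 held 9898 counts of Xist, and no other library more than 5, and Ddx3y of the Y chromosome had 0 counts in library 5 and from 33.7 to 82.6 CPM (counts scaled to a common library size) in the other 7. Hence 6 libraries held Y-linked RNA with at most 5 counts of Xist, against their label, and library 7 held both genes. Libraries 5 and 7 are both splenic, and every marrow library held Y-linked RNA with little or no Xist. Sex of the source mice and tissue thus cannot be fully told apart in the comparisons of spleen with marrow. The values that follow are also given without libraries 5 and 7 where these change a call. Each tissue's Gr-1hi and Gr-1lo groups differed in the genes of the gate. Ly6g, which encodes an antigen bound by anti-Gr-1, lay between 330 and 801 CPM in Gr-1hi and between 3.07 and 8.23 CPM in Gr-1lo libraries, and Itgam, which encodes CD11b, lay above 734 CPM in all 8. Depth was 33453580 to 68316154 counted reads. Where a gene had no count, up to 3 counts remain possible, which is 0.0348 to 0.124 CPM by counting error alone. Chi-square values per degree of freedom between the libraries of a group were 71.2 in SP Gr-1hi and 20.0 to 23.3 in the other groups, above the 1 of pure counting noise.

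On GRCm38, 5 of the genes (Ccl5, Ccl9, Ccl6, Ccl3 and Ccl4) lie within 138906 bases of chromosome 11, from 83525778 to 83664683, and Cxcl9 and Cxcl10 lie within 27543 bases of chromosome 5, from 92321347 to 92348889. Cxcl2 is on chromosome 5 from 90903871 to 90905938, Cxcl12 on chromosome 6 from 117168535 to 117181367, and Cxcl16 on chromosome 11 from 70453983 to 70459984. RefSeq promoters of GRCm38.p6 were at hand for 7 of the 10 genes. The stretches before the transcription start are shown for 3 sets of genes, namely Cxcl9 and Cxcl10, neighbours that were both higher in spleen, Ccl9 and Ccl6, neighbours that differed in opposite directions between the subsets, and Cxcl2, which was higher in Gr-1hi cells. Capitals mark matches on either strand to a κB motif (GGGNNNTTCC) or to an interferon-stimulated response element (ISRE, GAAANNGAAA), each running 5′ to 3′ towards the gene. The stretches are chr5:92328080-92328329 (minus strand) for Cxcl9, chr5:92348890-92349139 (minus strand) for Cxcl10, chr5:90903649-90903870 (plus strand) for Cxcl2, chr11:83578637-83578886 (minus strand) for Ccl9 and chr11:83593088-83593337 (minus strand) for Ccl6.
Cxcl9: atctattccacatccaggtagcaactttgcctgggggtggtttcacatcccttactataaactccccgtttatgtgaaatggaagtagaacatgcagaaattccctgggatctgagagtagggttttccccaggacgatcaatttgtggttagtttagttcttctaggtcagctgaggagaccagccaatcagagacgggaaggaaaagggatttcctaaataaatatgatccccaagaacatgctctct
Cxcl10: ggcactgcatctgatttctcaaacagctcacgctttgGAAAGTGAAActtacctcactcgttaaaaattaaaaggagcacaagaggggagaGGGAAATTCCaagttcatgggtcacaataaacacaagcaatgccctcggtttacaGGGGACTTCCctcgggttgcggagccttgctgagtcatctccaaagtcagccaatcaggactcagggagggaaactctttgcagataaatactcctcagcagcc
Cxcl2: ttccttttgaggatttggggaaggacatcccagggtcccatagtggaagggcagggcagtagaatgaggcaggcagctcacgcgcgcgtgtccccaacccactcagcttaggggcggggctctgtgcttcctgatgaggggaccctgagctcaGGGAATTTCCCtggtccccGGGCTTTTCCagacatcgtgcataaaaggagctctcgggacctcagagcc
Ccl9: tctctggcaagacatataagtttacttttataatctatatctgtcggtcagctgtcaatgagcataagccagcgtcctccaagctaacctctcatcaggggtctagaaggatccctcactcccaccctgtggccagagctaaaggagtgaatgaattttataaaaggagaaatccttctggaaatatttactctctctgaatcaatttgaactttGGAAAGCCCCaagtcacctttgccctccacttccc
Ccl6: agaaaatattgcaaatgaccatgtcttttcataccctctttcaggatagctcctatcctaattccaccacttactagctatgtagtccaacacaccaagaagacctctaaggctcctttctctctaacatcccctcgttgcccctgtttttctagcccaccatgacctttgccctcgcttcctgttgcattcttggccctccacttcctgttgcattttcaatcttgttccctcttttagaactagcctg

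Within 250 bases of the RefSeq start, Cxcl10 held 1 ISRE match, which begins 213 bases before the start, and 2 κB matches, which begin 159 and 104 bases before it. Cxcl2 held 3 κB matches beginning 97, 96 and 78 bases before the start, of which the first 2 overlap on opposite strands as the capital run of 11 letters. The stretch printed for Cxcl2 ends just before the gene's start in GENCODE, which is 28 bases short of the RefSeq start from which these positions are counted. Ccl9 held 1 κB match, 35 bases before the start, and its neighbour Ccl6 none. Cxcl9, Cxcl12 and Ccl3 had no match to either motif, and none of the 7 promoters held the GAS motif TTCNNNGAA. Of 32851 promoters, 4.65% held the κB letters, 2.98% the ISRE letters and 7.02% the GAS letters in the same window. The motifs were picked after these promoters had been read, and a match describes letters, not binding.

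Corrected for length, Ccl6 was the most abundant of the 10 mRNAs in every library. In TPM, counts scaled by exon length and to a common sum, its mean was 747 ± 3.70 (SD, n = 2) in SP Gr-1hi, 405 ± 7.87 in SP Gr-1lo, 811 ± 182 in BM Gr-1hi and 425 ± 34.4 in BM Gr-1lo cells. The 10 genes together summed to between 696 and 1274 TPM, and Ccl6 with Ccl9 made up 58.8% to 88.6% of that sum. The second most abundant gene depended on the subset. In Gr-1hi libraries it was Cxcl2, at 11.1% to 29.3% of the sum, and in Gr-1lo libraries Ccl9, at 21.9% to 34.2%. Cxcl9 and Cxcl10 made up 11.7% and 7.28% of the sum in library 8, but at most 0.0680% and 0.106% in the BM Gr-1hi libraries. Cxcl12 never exceeded 0.0527%.

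**Figure D1:**
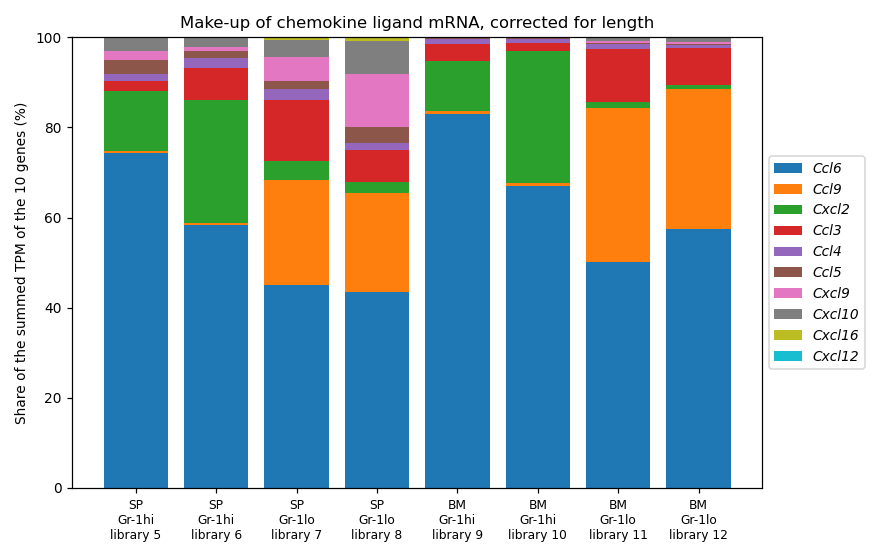
Share of each gene in the summed TPM of the 10 chemokine ligand genes (y axis, %) in each library (x axis), as stacked bars. Ccl6 (blue) is the largest part of each bar, Ccl9 (orange) is wide only in the Gr-1lo libraries, and Cxcl9 with Cxcl10 (pink and grey) is widest in library 8.

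Spleen was compared with marrow within each subset, the question being how the spleen-derived cells of these mice differ from the marrow cells of the same phenotype. Of the 10 genes, Cxcl9, Cxcl10, Cxcl16 and Ccl5 were higher and Cxcl12 was lower in spleen, in Gr-1lo and in Gr-1hi cells alike. The thresholds were a fold change of 2 or more with an adjusted p no higher than 0.05. In Gr-1lo cells these 5 called genes stand beside a background of 4.06% of all genes tested that met the same thresholds (3.84% higher and 0.215% lower). In Gr-1hi cells the 5 stand beside 15.5% (14.0% higher and 1.48% lower). The libraries did not overlap for 7 of the 10 genes in Gr-1lo cells, where 59.7% of all genes did not, and for 8 in Gr-1hi cells, where 67.8% did not. The median log2 fold change of the 10 genes was 1.53 in Gr-1lo and 0.73 in Gr-1hi cells, against -0.013 and 0.030 over all genes. The 10 genes were chosen with earlier results of these data known. Their counts and medians, here and below, thus describe these genes and do not stand for chemokine ligands at large.

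Corrected for length, Cxcl9 had the highest mean of the 4 genes that rose in spleen in SP Gr-1lo cells, at 79.2 ± 44.7 TPM (SD, n = 2), where Cxcl10 had 50.9 ± 25.2. In SP Gr-1hi cells it had 15.4 ± 4.58 TPM, where Cxcl10 had 27.2 ± 3.15 and Ccl5 26.4 ± 7.23. Its CPM were 26.9 and 19.0 in SP Gr-1hi, 47.7 and 116 in SP Gr-1lo, 0.897 and 1.28 in BM Gr-1hi, and 4.02 and 3.40 in BM Gr-1lo libraries. No 2 groups overlapped, and the order was SP Gr-1lo, SP Gr-1hi, BM Gr-1lo, BM Gr-1hi. Between spleen and marrow, Cxcl9 was 22.1-fold higher in Gr-1lo cells (log2 fold change 4.46, SE 0.47, adjusted p = 0.00298) and 21.2-fold higher in Gr-1hi cells (4.40, SE 0.55, adjusted p = 0.00206). The call in Gr-1lo cells was lost when only the 4 libraries compared were fitted (adjusted p = 0.0540), with a log2 fold change of 4.49, and without library 8 the log2 fold change was 3.69 (adjusted p = 0.00151).

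Cxcl10, the other CXCR3 ligand, followed the same order, but its 2 spleen groups overlapped. Its CPM were 31.7 and 29.1 in SP Gr-1hi, 24.8 and 53.5 in SP Gr-1lo, 0.673 and 1.49 in BM Gr-1hi, and 4.30 and 4.63 in BM Gr-1lo libraries. Every spleen library was thus above every marrow library. The difference was 8.79-fold in Gr-1lo (log2 fold change 3.14, SE 0.38, adjusted p = 0.00359) and 28.5-fold in Gr-1hi cells (4.83, SE 0.47, adjusted p = 0.000524). In Gr-1lo cells the adjusted p was 0.0573 without library 11, 0.0570 without library 12 and 0.0539 without the filter on low counts, and the log2 fold change was 2.47 (adjusted p = 0.00251) without library 8. Per length, Cxcl9 stood at 1.44 and 1.61 times the level of Cxcl10 in the SP Gr-1lo libraries and at 0.487 to 0.996 times in the other 6.

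Cxcl16 was expressed at a lower level, with 3.59 and 2.23 CPM in SP Gr-1hi, 5.32 and 8.85 in SP Gr-1lo, 0.935 and 0.330 in BM Gr-1hi, and 0.799 and 0.491 in BM Gr-1lo libraries. The marrow groups overlapped, and the spleen groups lay above them and apart from each other. Cxcl16 was 11.0-fold higher in spleen in Gr-1lo cells (log2 fold change 3.46, SE 0.46, adjusted p = 0.00354) and 4.52-fold higher in Gr-1hi cells (2.18, SE 0.51, adjusted p = 0.0130). The call in Gr-1hi cells was lost without library 5 (log2 fold change 1.71, adjusted p = 0.0756), without library 10 (1.54, adjusted p = 0.0746) and without libraries 5 and 7 together (1.81, adjusted p = 0.0572), and the log2 fold change was 3.06 (adjusted p = 0.0211) without library 9.

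Ccl5 had 14.5 and 10.6 CPM in SP Gr-1hi, 5.47 and 11.4 in SP Gr-1lo, 1.57 and 1.12 in BM Gr-1hi, and 0.471 and 0.378 in BM Gr-1lo libraries. The 2 spleen groups overlapped, and each marrow group lay below them and apart from the other. Ccl5 was 20.0-fold higher in spleen in Gr-1lo (log2 fold change 4.32, SE 0.42, adjusted p = 0.000957) and 9.28-fold higher in Gr-1hi cells (3.21, SE 0.40, adjusted p = 0.000942), and it passed both thresholds under all 15 alternatives in each subset. Its log2 fold change in Gr-1lo cells was 3.68 (adjusted p = 0.00154) without library 8. RNA of marker genes of T cells, which are known to make CCL5, was present in these libraries, and the cells it came from were not identified. The summed CPM of 10 T cell markers ranged from 77.0 to 122 in SP Gr-1hi, 27.0 to 42.2 in SP Gr-1lo, 8.71 to 11.7 in BM Gr-1hi and 1.91 to 2.02 in BM Gr-1lo libraries, and none of the 10 was at 0 in a group. In spleen 10 of 10 were called higher in Gr-1lo and 9 of 10 in Gr-1hi cells, beside 3.84% and 14.0% of all genes. The ratio of Ccl5 CPM to that sum lay between 0.118 and 0.138 in the 4 Gr-1hi and between 0.187 and 0.271 in the 4 Gr-1lo libraries. In BM Gr-1hi libraries Cd3d, the marker not called in Gr-1hi cells (log2 fold change 0.70), was the largest part of the sum. It had 5.31 and 2.93 CPM there, and Il7r, the next highest, had 1.76 and 1.61 CPM. The ratio in those libraries thus leans on Cd3d. NK cells are a further known source. Of 9 NK cell markers, 4 were called higher in spleen in Gr-1lo and 8 in Gr-1hi cells, beside the same shares of all genes. Nkg7 alone made up 95.9% to 97.8% of their summed CPM in BM Gr-1lo and 65.9% to 79.3% in SP Gr-1lo libraries, and the other 8 summed to 15.2 to 20.6 CPM in SP Gr-1hi, 7.39 to 10.4 in SP Gr-1lo, 2.77 to 3.10 in BM Gr-1hi and 0.840 to 1.47 in BM Gr-1lo libraries. With Nkg7 the sums were 19.9 to 28.8, 30.6 to 35.7, 4.09 to 4.75 and 35.8 to 38.2 CPM in the same order. The part of T cell or NK cell RNA in the Ccl5 values was not tested, and in bulk samples fewer cells of a type and less RNA per cell cannot be told apart.

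Markers of dendritic cells and splenic macrophages, which can express Cxcl9, Cxcl10 and Cxcl16, also differed between the tissues. Over all genes, 3.84% were called higher in spleen in Gr-1lo cells, and 14.0% higher and 1.48% lower in Gr-1hi cells. Of 8 dendritic cell markers, 3 were called higher in spleen in Gr-1lo cells, and 4 higher and 1 lower in Gr-1hi cells. Their sum was 110 to 112 CPM in SP Gr-1hi, 27.1 to 42.6 in SP Gr-1lo, 27.4 to 40.8 in BM Gr-1hi and 6.16 to 9.44 in BM Gr-1lo libraries, of which Itgax made up 73.3% to 83.4% in the Gr-1hi libraries. Without Itgax the sums were 26.3 to 29.8, 16.0 to 26.1, 6.48 to 6.77 and 5.55 to 8.32 CPM in the same order. Of 12 macrophage markers, 7 were called higher in spleen in each subset and none lower. Their sum was 861 to 1035, 237 to 267, 536 to 600 and 170 to 198 CPM, but Slc40a1, which encodes the iron exporter ferroportin, made up 78.6% to 86.2% of it in the Gr-1hi libraries and was not called between tissues. The other 11 summed to 184 to 209 CPM in SP Gr-1hi, 206 to 238 in SP Gr-1lo, 74.3 to 101 in BM Gr-1hi and 150 to 176 in BM Gr-1lo libraries. Marco and Timd4 were at 0 counts in BM Gr-1lo, and none of the 12 was at 0 in the other groups. The ratio of Cxcl9 CPM to the sum of all 12 macrophage markers ran from 0.0015 (library 9, BM Gr-1hi) to 0.433 (library 8, SP Gr-1lo). Its ratio to the dendritic cell sum ran from 0.022 to 2.72 in the same libraries. The part of these cells in the difference between tissues was not tested.

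Cxcl12 was the gene that fell in spleen, at very low counts. It had 2 and 4 counts in SP Gr-1hi, 1 and 0 in SP Gr-1lo, 76 and 34 in BM Gr-1hi, and 34 and 16 in BM Gr-1lo libraries, that is up to 2.84 CPM in marrow and up to 0.128 CPM in spleen. All marrow libraries lay above all spleen libraries. In Gr-1lo cells, 1 count against 50 gave a 65.7-fold lower level with an exact 95% counting interval from 11.3 to 2646, and the test across all genes gave an adjusted p of 0.0146. In Gr-1hi cells, 6 counts against 110 gave a 23.2-fold lower level with an interval from 10.3 to 64.6, and the fitted log2 fold change was -4.47 (SE 0.73, adjusted p = 0.00284). The call in Gr-1lo cells was lost without library 8 (adjusted p = 0.150) and without library 11 (adjusted p = 0.0716), and in Gr-1hi cells the log2 fold change was -5.16 without library 6. Cxcl12 is best known from stromal cells. The sum of 10 stromal and endothelial markers was 6.03 to 8.15 CPM in BM Gr-1hi against 3.92 to 6.25 in SP Gr-1hi, but 0.680 to 1.37 in BM Gr-1lo against 2.09 in SP Gr-1lo libraries, and Lum was at 0 in every library. Without Col1a1, the most abundant of them, the other 9 summed to 1.28 to 1.68 CPM in BM Gr-1hi against 1.47 to 1.84 in SP Gr-1hi, and to 0.605 to 1.11 in BM Gr-1lo against 1.48 to 1.65 in SP Gr-1lo libraries. Their part in the Cxcl12 values was not tested.

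The other 5 genes were not called between tissues. Ccl6 had 238 and 255 CPM in SP Gr-1lo and 259 and 236 in BM Gr-1lo libraries, which overlapped (log2 fold change -0.0050, SE 0.13, adjusted p = 0.991). In Gr-1hi cells Ccl6 was 644 and 693 CPM in spleen and 983 and 750 in marrow (log2 fold change -0.38, SE 0.13, adjusted p = 0.0556), and Ccl9 was 7.96 and 7.82 against 12.3 and 11.0 CPM (-0.57, SE 0.16, adjusted p = 0.0262, below the 2-fold limit). Ccl9 in Gr-1lo cells had a log2 fold change of -0.27 (SE 0.14, adjusted p = 0.347). Cxcl2 had a log2 fold change of 1.92 (SE 0.71, adjusted p = 0.215) in Gr-1lo and of -0.068 (SE 0.65, adjusted p = 0.949) in Gr-1hi cells. With SEs that large, Cxcl2 differences of 2-fold between tissues were not detectable.

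**Figure D2:**
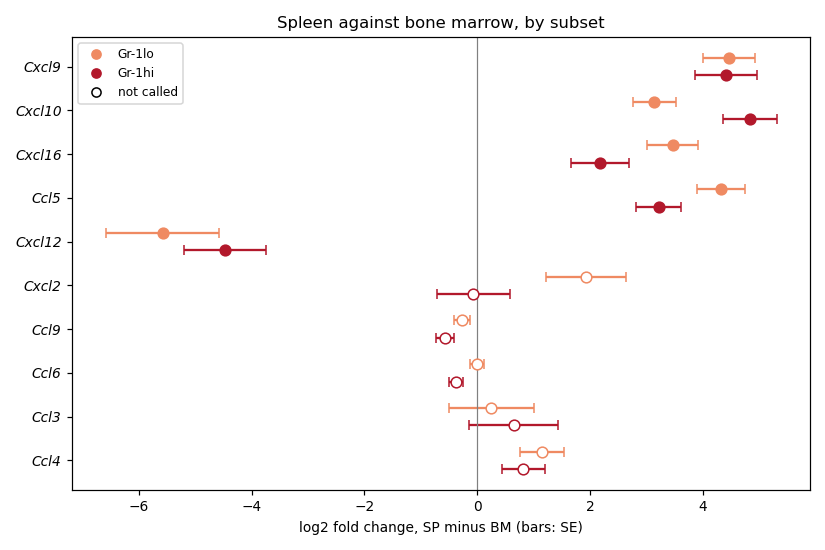
Log2 fold change between SP and BM (x axis; positive is higher in SP) of each gene (y axis) in Gr-1lo (orange) and Gr-1hi (red) cells, with bars for the SE from edgeR. Filled points are called; Cxcl9, Cxcl10, Cxcl16 and Ccl5 lie to the right and Cxcl12 to the left of 0 in both subsets.

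The Gr-1hi and Gr-1lo cells of a tissue were compared to ask which ligand each subset transcribes. At an adjusted p below 0.01 and a fold change above 8, 2 of the 10 genes were called in each tissue, Cxcl2 as higher and Ccl9 as lower in Gr-1hi cells. In marrow these 2 stand beside 16.7% of all genes (6.56% higher and 10.1% lower), and in spleen beside 7.37% (4.44% higher and 2.93% lower). With the thresholds used between tissues, 8 of 10 passed in marrow (5 higher, 3 lower) beside 57.3% of all genes (24.2% higher, 33.1% lower), and 5 of 10 in spleen (2 higher, 3 lower) beside 49.6% (22.3% higher, 27.4% lower), and nothing about the 10 genes is read from these counts. The libraries did not overlap for 8 genes in marrow, where 88.9% of all genes did not, and for 7 in spleen, where 86.2% did not. The median log2 fold change of the 10 genes was 0.63 in marrow and 0.21 in spleen, against -0.175 and -0.088 over all genes. RLE scaling moved these medians over all genes to -0.025 and 0.045 and those of the 10 genes to 0.79 and 0.34.

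Cxcl2 had 133 and 372 CPM in SP Gr-1hi, 24.5 and 17.2 in SP Gr-1lo, 151 and 378 in BM Gr-1hi, and 7.31 and 3.70 in BM Gr-1lo libraries. The Gr-1hi libraries of the 2 tissues overlapped and lay above all Gr-1lo libraries, and within each Gr-1hi pair the levels differed more than 2-fold. The summed CPM of 10 neutrophil markers was 75850 to 96800 in SP Gr-1hi and 7863 to 9097 in SP Gr-1lo libraries. In marrow it was 131600 to 140800 in Gr-1hi and 4079 to 4203 in Gr-1lo libraries. The part of Gr-1hi cell RNA in the Cxcl2 values of Gr-1lo libraries was not tested. Cxcl2 was 48.1-fold higher in Gr-1hi cells in marrow (log2 fold change 5.59, SE 0.81, adjusted p = 0.00107) and 12.1-fold higher in spleen (3.60, SE 0.72, adjusted p = 0.00519). The direction held in every alternative, but the stricter thresholds did not. Without library 6 the log2 fold change in spleen was 2.66, below the 8-fold limit, and without library 10 that in marrow was 4.86. In spleen the adjusted p was 0.0115, 0.0381, 0.0415, 0.0597, 0.0111 and 0.0108 without libraries 5, 6, 7, 8, 11 and 12, respectively, and 0.0642 without 5 and 7 together, and in marrow it was 0.0123 without library 12 and 0.0183 without 5 and 7.

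Ccl9 showed the opposite pattern, with far tighter libraries. Its CPM were 7.96 and 7.82 in SP Gr-1hi, 211 and 218 in SP Gr-1lo, 12.3 and 11.0 in BM Gr-1hi, and 301 and 215 in BM Gr-1lo libraries. All Gr-1lo libraries exceeded all Gr-1hi libraries, by 22.1-fold in marrow (log2 fold change -4.46, SE 0.17, adjusted p = 1.56e-07) and 27.2-fold in spleen (-4.77, SE 0.17, adjusted p = 3.36e-07). Ccl9 kept this call in all 15 alternatives in each tissue. Ccl6, the neighbouring gene, was higher in Gr-1hi cells, by 3.50-fold in marrow (log2 fold change 1.81, SE 0.13, adjusted p = 3.36e-06) and 2.71-fold in spleen (1.44, SE 0.13, adjusted p = 1.87e-05), both below the 8-fold limit. On the TPM scale, the ratio of Ccl6 to Ccl9 was therefore 115 to 150 in the 4 Gr-1hi libraries and 1.46 to 1.99 in the 4 Gr-1lo libraries. Ccl6 overlaps the antisense gene E230016K23Rik, which had 1.65 to 3.87 CPM, while the partners of Cxcl10 (Art3) and Cxcl16 (Zmynd15) stayed at or below 0.542 and 0.823 CPM.

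Ccl3 and Ccl4, adjacent genes for inflammatory chemokines, were not called between tissues, nor between subsets at the stricter thresholds. Ccl3 had 7.96 and 36.0 CPM in SP Gr-1hi, 31.0 and 17.5 in SP Gr-1lo, 18.9 and 9.08 in BM Gr-1hi, and 26.3 and 14.3 in BM Gr-1lo libraries, so that each group overlapped with all the others. Its fitted log2 fold changes had SEs from 0.76 to 0.79, and a 2-fold difference could not have been told from the spread. Ccl4 had 4.97 and 9.47 CPM in SP Gr-1hi, 4.39 and 3.15 in SP Gr-1lo, 4.86 and 3.30 in BM Gr-1hi, and 2.17 and 1.23 in BM Gr-1lo libraries. The log2 fold change of Ccl4 between spleen and marrow was 1.14 (SE 0.39, adjusted p = 0.155) in Gr-1lo and 0.82 (SE 0.39, adjusted p = 0.136) in Gr-1hi cells, and without the filter on low counts the former passed (adjusted p = 7.98e-05). Between Gr-1hi and Gr-1lo cells Ccl4 had a log2 fold change of 1.27 (SE 0.41, adjusted p = 0.0198) in marrow, with an adjusted p of 0.111 without library 9 and 0.124 without library 12, and of 0.94 (SE 0.37, adjusted p = 0.0488) in spleen. Per length, Ccl3 stood at 10.1 and 10.5 times the level of Ccl4 in BM Gr-1lo, 4.79 and 6.09 times in SP Gr-1lo, and 1.38 to 3.35 times in the Gr-1hi libraries.

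**Figure D3:**
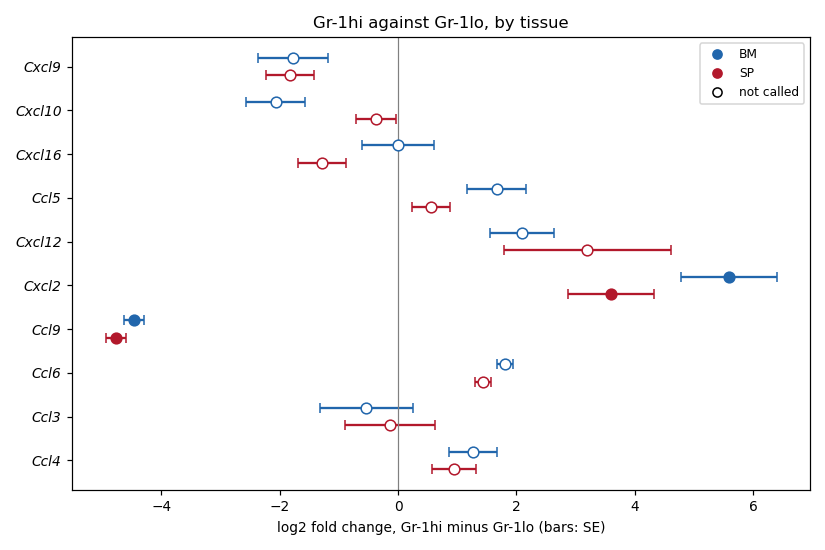
Log2 fold change between Gr-1hi and Gr-1lo cells (x axis; positive is higher in Gr-1hi) of each gene (y axis) in BM (blue) and SP (red), with bars for the SE from edgeR. Filled points pass an adjusted p below 0.01 and a fold change above 8; these are Cxcl2 on the right and Ccl9 on the left.

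Among the genes higher in spleen, the subsets differed as well, below the stricter threshold. Cxcl9 was lower in Gr-1hi than in Gr-1lo cells by a log2 fold change of -1.83 (SE 0.41, adjusted p = 0.00579) in spleen and -1.77 (SE 0.59, adjusted p = 0.0296) in marrow. Cxcl10 was lower by -2.07 (SE 0.50, adjusted p = 0.00608) in marrow, and in spleen its value was -0.37 (SE 0.34, adjusted p = 0.358). Cxcl16 had a log2 fold change of -1.29 (SE 0.41, adjusted p = 0.0196) in spleen and of -0.00058 (SE 0.61) in marrow. Ccl5 ran the other way, with 1.67 (SE 0.49, adjusted p = 0.0141) in marrow and 0.56 (SE 0.33, adjusted p = 0.155) in spleen, where library 8 was above library 6. Cxcl12 in marrow was 4.27-fold higher in Gr-1hi cells (log2 fold change 2.09, SE 0.55, adjusted p = 0.00727). The directions of those at an adjusted p no higher than 0.05 held when each library was left out, but the threshold was lost for each. In spleen it was lost without library 6 for Cxcl9 (adjusted p = 0.0793) and without library 6 or 8 for Cxcl16 (0.0969 and 0.147). In marrow it was lost for Cxcl9 without library 5, 6, 9, 10, 11 or 12 (0.0594 to 0.159), for Cxcl10 without library 9 (0.0561), for Ccl5 without library 9 or 12 (0.0892 and 0.0706), and for Cxcl12 without library 9 or 12 (0.0763 and 0.0538). The log2 fold change moved to -1.08 for Cxcl9 in spleen without library 8 and to 2.78 for Cxcl12 in marrow without library 11.

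**Figure D4:**
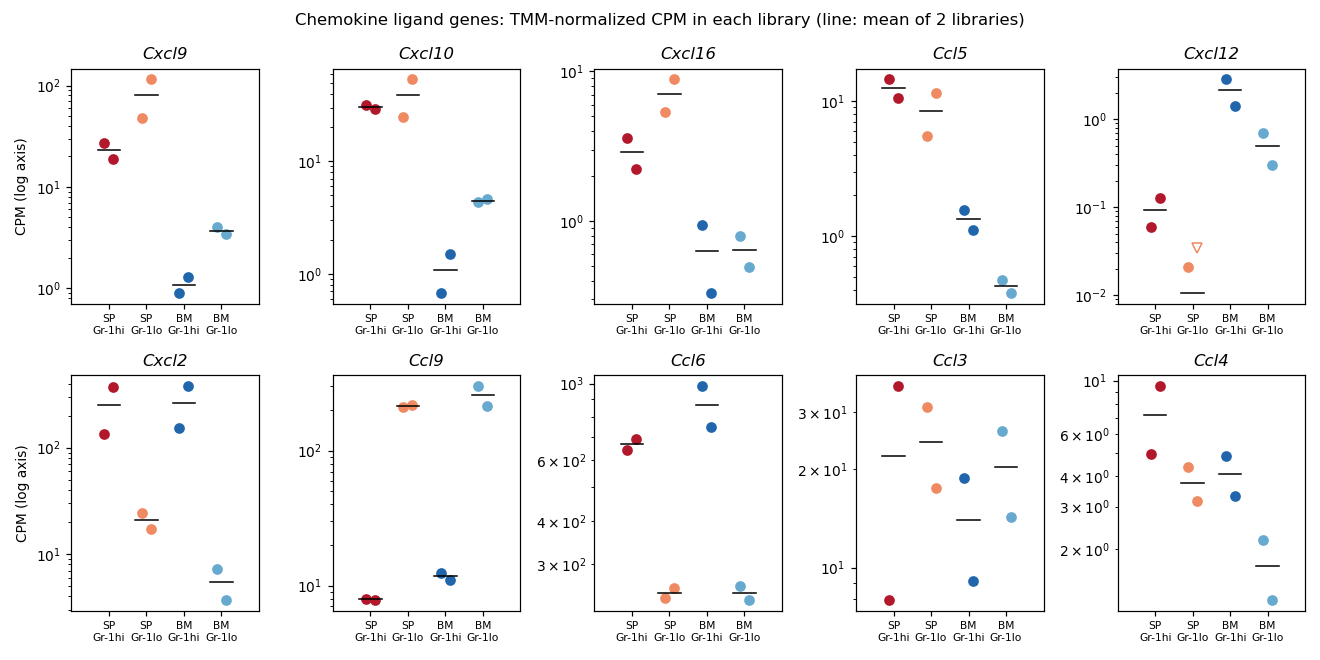
TMM-normalized CPM (y axes, log scale, a separate range in each panel) of the 10 genes in the 2 libraries of each group (points) with their mean (black line). The open triangle for Cxcl12 marks the 3-count limit of library 8, where the count was 0; the spleen points of Cxcl9, Cxcl10, Cxcl16 and Ccl5 all lie above the marrow points.

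Whether the difference between tissues itself differed between the subsets was tested as an interaction. None of the 10 genes was called by edgeR, where 9.74% of all genes were, 1 had an unadjusted p of at most 0.05, and DESeq2 called 1. That gene was Cxcl10, whose difference between spleen and marrow was larger in Gr-1hi cells by 1.70 on the log2 scale (SE 0.61, adjusted p = 0.102 by edgeR and 0.0122 by DESeq2, n = 2 libraries per group). Without library 8 it passed (2.36, adjusted p = 0.0200). Ccl5 had -1.11 (SE 0.59, adjusted p = 0.239) and passed without libraries 5 and 7 (-1.75, adjusted p = 0.0484). The median over the 10 genes was -0.31, against 0.026 over all genes.

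The genes of most similar pattern were found for each ligand by the correlation of log2(CPM + 1) over the 8 libraries, which is a description, since the points share groups. Ccl6 (Rassf2, r = 0.999) and Ccl9 (Abca9, r = 0.999) had the closest, and Ccl3 the least close (Ints8, r = 0.818). The others were Ada for Cxcl2 (r = 0.990), Hspa1b for Cxcl9 (r = 0.986), Ighv9-3 for Cxcl10 (r = 0.982), Foxn3 for Cxcl16 (r = 0.985), Abca2 for Cxcl12 (r = 0.965), Pip4k2a for Ccl4 (r = 0.943) and Jchain for Ccl5 (r = 0.979). Jchain and Ighv9-3 are genes of antibody-secreting cells, and B cell markers summed to 339 to 501 CPM in SP Gr-1hi, 62.5 to 78.8 in SP Gr-1lo, 14.3 to 17.8 in BM Gr-1hi and 7.85 to 9.69 in BM Gr-1lo libraries. The next genes in rank were Gm38394, Adgre4, Igkv10-96, Cpt1a, Gpx4, Ap5z1, Egr1, Nfkb2, Rbm5 and Dock1 for Cxcl2, Cxcl9, Cxcl10, Cxcl16, Cxcl12, Ccl3, Ccl4, Ccl5, Ccl6 and Ccl9, respectively. Among the ligands themselves, Cxcl9 correlated with Cxcl10 (r = 0.966) and Cxcl16 (r = 0.960), and Ccl9 ran against Ccl6 (r = -0.956) and Cxcl2 (r = -0.935).

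Of 28 further chemokine ligands, 9 passed the filter. Beside 3.84% higher and 0.215% lower among all genes tested, 1 of the 9 was called higher in spleen in Gr-1lo cells and none lower. It was Cxcl11, the third CXCR3 ligand, named here after its values were seen, with 0.359 and 0.904 CPM in SP Gr-1lo and 0 counts in the BM Gr-1lo libraries, hence at least 24.1-fold higher against 3 counts over the group. In Gr-1hi cells 5 of the 9 were called higher in spleen, beside 14.0% of all genes tested. Among them was Ccl2, a monocyte attractant, with a log2 fold change of 1.19 (SE 0.30, adjusted p = 0.0164). The others, Cxcl11, Cxcl13, Ccl22 and Ccl24, are named with their values known and had at most 1.54 CPM in any library. Ccl24 rested on 8 counts in SP Gr-1hi against 0 in BM Gr-1hi libraries. Ccl2 was lower in Gr-1hi than in Gr-1lo cells in marrow (log2 fold change -3.19, SE 0.28, adjusted p = 9.16e-06), and Cxcl3, like Cxcl2 a ligand of CXCR2, was called higher in Gr-1hi cells in both tissues, with 0.964 and 2.71 CPM in SP Gr-1hi against 0.0211 and 0.104 in SP Gr-1lo, and 0.935 and 2.02 CPM in BM Gr-1hi against 0 in BM Gr-1lo. In all, 1 of the 9 was higher and 2 were lower in Gr-1hi cells in marrow, and 2 were higher and none lower in spleen. The shares over all genes were 6.56% higher and 10.1% lower in marrow, and 4.44% and 2.93% in spleen. Ccl25 and Ccl27a, the other ligands of highest mean CPM, were not called. With genes at 0 set to their bound, the median log2 fold change of the 9 was 0.34 in Gr-1lo and 1.19 in Gr-1hi cells between tissues.

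Of 23 chemokine receptors, 18 passed the filter. Of these 18, 6 were called higher in spleen in Gr-1lo and 11 in Gr-1hi cells, and none lower, with a median log2 fold change (genes at 0 set to their bound) of 1.08 and 1.73. Of all genes tested, 3.84% were called higher in spleen in Gr-1lo and 14.0% in Gr-1hi cells. By fitted value the largest receptor changes in Gr-1lo cells were those of Ccr7 and Ccr6, receptors of lymphocytes and dendritic cells with 0 counts in BM Gr-1lo libraries. Against 3 counts over the group, Ccr7 was at least 58.1-fold and Ccr6 at least 32.2-fold higher. Cxcr5 had a log2 fold change of 5.94 (SE 0.49) and Xcr1 of 5.64 (SE 0.75), against bounds of 5.86 for Ccr7 and 5.01 for Ccr6. The order of these receptors is thus not settled. In Gr-1hi cells the largest were Xcr1, with 2.56 and 2.55 CPM in spleen and 0.0374 and 0 in marrow, and Ccr6 (log2 fold change 5.82, SE 0.42). Between subsets, 5 receptors were higher and 3 lower in Gr-1hi cells in marrow, beside 6.56% and 10.1% of all genes. In spleen 3 receptors were higher and 2 lower, beside 4.44% and 2.93% of all genes. Cxcr1 and Cxcr2 led those higher, and Ccr2 was among those lower in each tissue.

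The receptors named next were picked by their ligands among the 10 genes, with their values known. Cxcr2, through which CXCL2 acts, had 2269 to 2760 CPM in Gr-1hi and 12.2 to 26.9 CPM in Gr-1lo libraries, and was thus higher in the same subset as Cxcl2 (log2 fold change 7.44, SE 0.20 in marrow and 6.64, SE 0.19 in spleen). Ccr1, the receptor of CCL6 and CCL9, had 805 to 852 CPM in Gr-1hi and 116 to 141 CPM in Gr-1lo libraries. Cxcr3, the receptor of CXCL9 and CXCL10, was at 6.78 and 6.38 CPM in SP Gr-1hi and at 0.743 to 3.12 CPM elsewhere. Cxcr4, the receptor of CXCL12, had 267 and 345 CPM in SP Gr-1hi and 455 and 401 in BM Gr-1hi libraries, and 82.6 and 90.2 in SP Gr-1lo and 128 and 146 in BM Gr-1lo libraries. It was lower in every spleen library than in every marrow library of its subset. The log2 fold change was -0.66 (SE 0.14, adjusted p = 0.02675) in Gr-1lo and -0.48 (SE 0.14, adjusted p = 0.0261) in Gr-1hi cells. Cxcr4 was not called because both lay below the 2-fold limit.

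Genes tied to the control of these ligands were counted from 2 lists. Of 18 regulators and co-targets of IFN-γ, none was called between SP and BM in Gr-1lo cells, where Cxcl9 and Cxcl10 were, and the median log2 fold change was 0.26. In Gr-1hi cells 7 of the 18 were called higher and none lower (median 1.13), led by Gbp5, a guanylate-binding protein (log2 fold change 3.53, SE 0.64, adjusted p = 0.00974), and Ciita, the regulator of MHC class II genes (3.31, SE 0.51, adjusted p = 0.00475). Between subsets in marrow, Cd274 was higher and Irf8 and Ciita were lower in Gr-1hi cells, and in spleen Cd274 was higher. Over all genes, 3.84% were called higher in spleen in Gr-1lo and 14.0% in Gr-1hi cells. Of 15 NF-κB regulators and co-targets, 4 were called higher in spleen in Gr-1lo cells, led by Cd83 (log2 fold change 4.13, SE 0.44) and Relb (1.47, SE 0.19). In Gr-1hi cells 3 were, led by Cd83 (4.74, SE 0.43) and Icam1 (3.24, SE 0.22), and none was lower in either subset. Il1b was the gene of this list called between subsets in both tissues, higher in Gr-1hi cells by 7.04 (SE 0.65) in marrow and 6.13 (SE 0.62) in spleen on the log2 scale. Of the sheddases Adam10 and Adam17 and the chemokine-cleaving protease Dpp4, Dpp4 was called higher in spleen in Gr-1hi cells (log2 fold change 2.42, SE 0.26, adjusted p = 0.000457).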

How the data were processed

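The authors deposited raw counts of reads per gene for 8 libraries. Per the labels and the study's methods, libraries came from a stranded mRNA kit, and reads were checked with FastQC, aligned to GRCm38 with STAR and counted with featureCounts. The strand setting of the counting is not given in the sources used here. From these counts, 17650 of 54188 genes passed filterByExpr of edgeR 4.0.16 (R 4.3.3). Libraries were scaled by TMM, and 1 quasi-likelihood model with robust dispersion was fitted to all 8, with 4 residual degrees of freedom. Benjamini-Hochberg adjustment ran over all genes tested, and the SE is the log2 fold change divided by the square root of F. Calls between SP and BM, and of the interaction, needed a fold change of 2 or more and an adjusted p no higher than 0.05, and calls between Gr-1hi and Gr-1lo a fold change above 8 and an adjusted p below 0.01. TPM used exon lengths of GENCODE M21 for 53947 genes.

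The 10 genes and all gene lists were chosen with earlier results of these data known. All 10 were named, with the 2 genes of most similar pattern of at least 10 mean CPM for each, the 4 further ligands of highest mean CPM, and the 2 called genes of each other list with the largest change in each direction. Some genes of these lists are not reported here by name. Depth was 33453580 to 68316154 counts. Alternatives were RLE and upper-quartile scaling, DESeq2 1.42.0, no filter, the 4 libraries compared alone, limma 3.58.1 on log2(quantile-normalized TPM + 1), and leaving out each library or libraries 5 and 7. The procedure was tested on simulated data.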

Additional observations from a re-analysis of the deposited data

How the results depend on the processing

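No paired analysis was possible because the groups share no replicate number and no label ties libraries to a mouse. Of the calls by comparison, SP against BM gave 3 to 5 genes in Gr-1lo cells (3 without library 11) and 4 to 5 in Gr-1hi cells when each library was left out, and Gr-1hi against Gr-1lo gave 1 to 2 in BM (1 without library 12) and 1 to 2 in SP (1 without library 5, 6, 7, 8, 11 or 12). Both subset comparisons gave 1 call without the filter and 1 without libraries 5 and 7, and 8 in BM and 5 in SP with the thresholds used between tissues. The interaction gave 0 to 1 call when each library was left out (1 without library 8), 1 by DESeq2, 1 without libraries 5 and 7, and 2 (Cxcl16 and Ccl5) without the filter, and the cause was not tested.

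Fold changes near 0 or with large SEs turned in sign, none of them a called value. Cxcl16 between subsets of BM was 0.15 with RLE, 0.039 with upper-quartile scaling, 0.14 with DESeq2, 0.056 in the 4 libraries and 0.097 with limma. Ccl6 between tissues in Gr-1lo cells was 0.030 with upper-quartile scaling, 0.041 without the filter, 0.020 in the 4 libraries and 0.033 without libraries 5 and 7. Without these 2 libraries, Cxcl2 between tissues in Gr-1hi cells was 0.51, Ccl3 -0.22 between tissues in Gr-1lo cells and 1.02 between subsets of SP, Ccl5 between subsets of SP -0.13 and Ccl4 in the interaction 0.34. When each library was left out, the ranges were -0.90 to 0.62 for Cxcl16 between subsets of BM, and between tissues -0.070 to 0.066 for Ccl6 and -0.21 to 0.76 for Ccl3 in Gr-1lo cells, and -1.06 to 0.63 for Cxcl2 and -0.90 to 1.27 for Ccl3 in Gr-1hi cells. Between subsets of SP they were -0.84 to 0.27 for Cxcl10 and -1.62 to 0.55 for Ccl3, and in the interaction -0.56 to 0.72 for Cxcl9, -0.11 to 2.97 for Cxcl12, -1.16 to 1.01 for Ccl3 and -0.96 to 0.033 for Ccl4. A library left out leaves 1 in its group, which is assumed to vary like the others. Cxcl12 had no value with limma, and its spleen levels rest on 4 counts or fewer in each library. On the log2(TPM + 1) scale of limma, fold changes between tissues that moved by over 1.5 times were 1.89 (Cxcl16) and 3.29 (Ccl5) in Gr-1lo and 3.15 (Cxcl9), 3.66 (Cxcl10), 1.04 (Cxcl16) and 2.46 (Ccl5) in Gr-1hi cells.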
